A study of Mus musculus with 12 samples.

Results

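The 34 genes described here were listed as markers of resting astrocytes, the glial cells that take up transmitter, buffer ions and feed neurons. They were taken by symbol from a written list of astrocyte transporters, gap junction proteins, enzymes, receptors and secreted proteins. The rule uses no measured value, but the list was drawn up with earlier results of these data known. All 34 occurred among the 43346 genes of the count table, and all 34 were among the 22553 genes with enough counts to be tested. RNA was sequenced from a cross-section of mouse brain that held hippocampus and cortex, in 12 libraries of 3 groups with 4 libraries each. Young mice (libraries 1, 3, 4 and 5) were 3 months old and untreated, with C57BL/6 as the strain label. Old mice (libraries 7, 8, 9 and 10) were 23 months old with C57BL/6;SJL-Tg as the strain label. From the age of 9 months their drinking water held the vehicle, 0.1% PEG (polyethylene glycol). Old_CP2 mice (libraries 11, 12, 13 and 15) shared that age, strain label and vehicle and took CP2 as well, at 25 mg/kg/day. CP2 blocks mitochondrial complex I, where electrons enter the respiratory chain. Every library was labelled wild type and every title began with NTG, whereas the series' design text speaks of CP2 given to APP/PS1 mice, and this conflict could not be settled. Age, strain label and vehicle all changed between Young and Old and cannot be told apart. The labels do not say that each library came from its own animal, so p-values measure only the spread between libraries.

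Astrocytes clear glutamate from the synapse through the transporters Slc1a2 and Slc1a3, turn it into glutamine with the enzyme Glul and pass glutamine back to neurons. Their endfeet on blood vessels carry the water channel Aqp4 and the potassium channel Kcnj10, and gap junctions made of the connexins Gja1 and Gjb6 join the cells into a network. In injury and age, astrocytes are known to switch on a further set of genes, called reactive, with the filament gene Gfap as the best known.

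Depth ran from 70548781 to 99449665 counts per library, and the lowest count of any member in any library was 529, for Chrdl1. Levels are given as normalised CPM, counts scaled to the depth of the library, with TMM factors of 0.964 to 1.03. The libraries also differed in which brain regions they held. The summed level of midbrain and hindbrain genes was 13.1 to 20.4 CPM for Young, 48.9 to 102 for Old and 37.8 to 112 for Old_CP2, and Pax7, a midbrain factor, was at 0.174 ± 0.107, 4.00 ± 0.116 and 3.79 ± 1.27 CPM (mean ± SD, n = 4). Choroid plexus genes were at 1269 to 2039 summed CPM in Young and at 30.7 to 1007 in the other 8 libraries. Its main product Ttr was at 129.6 CPM in Old 7, 6.81 in Old 9, 5.08 in Old_CP2 11 and 40.6 in Old_CP2 15, against 686 to 861 in the other 4 old libraries and 1071 to 1762 in Young. The part of these regional differences in the member values between Young and either old group cannot be told apart from age. Young and old libraries overlapped neither in the summed level of midbrain and hindbrain genes nor in that of choroid plexus genes.

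Per kilobase of deposited gene length, the mean level over 12 libraries was highest for Cst3, at 775 CPM per kb, and Sparcl1, at 618 CPM per kb. Glul followed at 318, Ndrg2 at 316 and Slc1a2 at 210.5 CPM per kb. The lowest were Plcd4, a phospholipase C, at 3.25 CPM per kb and Chrdl1, a secreted antagonist of bone morphogenetic proteins, at 1.53 CPM per kb. Among all tested genes on this scale, the members ran from the percentile of 37.2 for Chrdl1 and 49.7 for Plcd4 to that of 99.9 for Cst3.

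Old was compared with Young to see how these genes differ between 23 and 3 months. Of the 34 members, 9 rose and 0 fell in Old against Young (edgeR quasi-likelihood F test, Benjamini-Hochberg adjusted p under 0.05 over all genes tested). The genes that rose were Sparcl1, Gpc5, Gjb6, Fgfr3, Acsbg1, Mfge8, Ppp1r3c, Gja1 and Slc4a4, by 16.6% for Gja1 to 41.4% for Gpc5. At an unadjusted p under 0.05, 21 were higher and 1, Slc7a10, was lower. Over all genes tested, 3.96% were called higher and 2.74% lower. In 16 members all 4 Old values lay above all 4 Young values, and in 0 below, while 6.94% of all genes were without overlap in the higher direction and 6.32% in the lower. The fold change was positive for 33 of 34 members, with a median of 0.22 on the log2 scale against -0.0034 over all genes. Summed over the members, the level was 10554 to 11814 CPM in Young and 12866 to 13944 CPM in Old. In bulk tissue, a change in the number of astrocytes, a change in RNA per cell and RNA of the same genes from other cells cannot be told apart.

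The comparison of Old_CP2 with Old asks how the members differed with the inhibitor at one age. By edgeR, 0 members were called, while 0.0266% of all genes were called higher and 0.0177% lower. At an unadjusted p under 0.05, however, 17 members were lower and 0 higher, against 3.25% of all genes lower and 3.06% higher at the same threshold. Those 17 include both connexin genes, the enzymes Acsbg1, Aldh1l1, Cbs and Prodh, the receptor gene Fgfr3 and the potassium channel gene Kcnj10. In 14 members all 4 Old_CP2 values lay below all 4 Old values, and in 0 above, where 1.82% of all genes were without overlap in the lower direction and 1.62% in the higher. The fold change was negative for 32 of 34 members, with a median of -0.15 against 0.0017 over all genes. The members' summed level was 11463 to 12375 CPM in Old_CP2, below the 4 Old libraries. With DESeq2 in place of edgeR, 7 members were called lower here, namely Acsbg1, Fgfr3, Cbs, Aldh1l1, Prodh, Kcnj10 and Gja1, among 109 genes called in all, and limma voom called 0 members. Without the library Old_CP2 15, edgeR called 2 members lower, Acsbg1 and Prodh. Without the library Old_CP2 11, 11 members in place of 17 were lower at an unadjusted p under 0.05. A list of 9 immediate early and heat shock genes (Fos, Egr1, Junb, Arc, Dusp1, Ier2, Nr4a1, Hspa1a and Hspa1b) was compared between these groups too. Of its fold changes 8 of 9 were positive, with a median of 0.45. Of its genes 0 were called and 0 had an unadjusted p under 0.05. Summed, these genes reached 201 to 473 CPM for the Young libraries, 243 to 645 for the Old ones and 402 to 865 for those of Old_CP2, so that the 3 ranges overlapped, and the list's median fold change against Young was 0.55 in Old and 0.95 in Old_CP2, with 9 of 9 positive in both. Of 12 clock and glucocorticoid genes, 0 were called in Old_CP2 against Old and 6 were higher at an unadjusted p under 0.05. The part of either list in the members' values was not tested.

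The comparison of Old_CP2 with Young sets the treated old group beside the young one. In it 2 members rose, Sparcl1 and Mfge8, and 1 fell, Slc7a10, where 4.63% of all genes were called higher and 2.94% lower. The groups did not overlap for 5 members in the higher and 1 in the lower direction, against 8.42% and 7.07% of all genes. Positive fold changes numbered 19 and negative ones 15, and the median was 0.05 against -0.0076 over all genes. The 3 comparisons share libraries, since each group enters a pair of them, so their fold changes are given side by side only. By group mean, 17 members were highest in Old, then Old_CP2, then Young, and 14 were highest in Old and lowest in Old_CP2. Glul and Itih3 were highest in Old_CP2, and Slc7a10 was highest in Young.

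**Figure D1:**
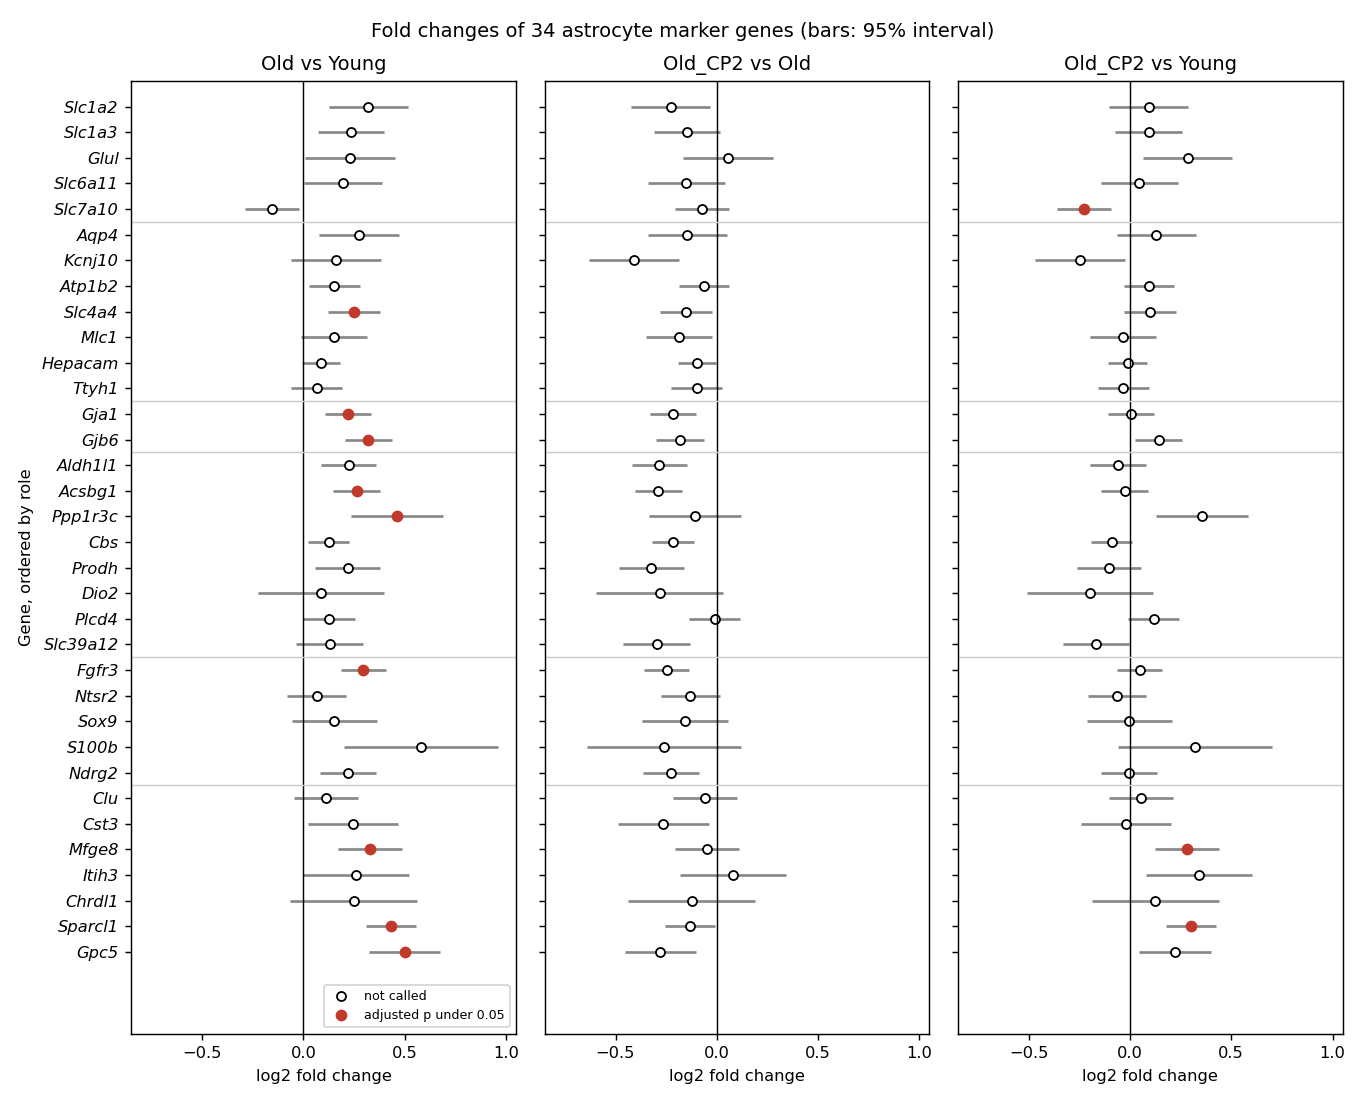
Log2 fold change (x axis) of each of the 34 members (y axis, grouped by role) in the 3 comparisons, with 95% intervals as bars and filled points for genes called by edgeR. Old vs Young has 9 filled points, all to the right of 0, Old_CP2 vs Old has 0, and Old_CP2 vs Young has 2 to the right and 1 to the left.

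**Figure D2:**
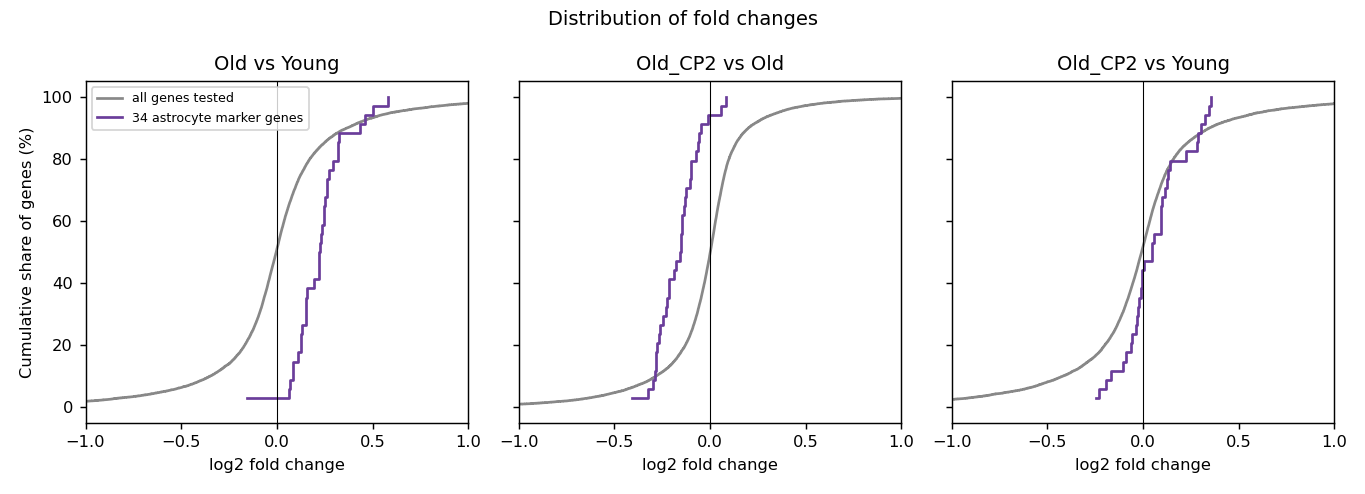
Cumulative share of genes in percent (y axis) against log2 fold change (x axis, shown from -1 to 1) for the 34 members and for all 22553 genes tested. The member curve lies to the right of the curve of all genes in Old vs Young (medians 0.22 and -0.0034) and to the left in Old_CP2 vs Old (medians -0.15 and 0.0017).

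The 5 genes that handle glutamate, GABA and amino acids included 0 called by edgeR in Old against Young and 4 with a positive fold change. Slc1a2, the main glutamate transporter of the forebrain, was at 2289, 2666, 2627 and 2424 CPM in Young, 2588, 3398, 3224 and 3286 in Old, and 2509, 2889, 2777 and 2491 in Old_CP2, each in the order of library numbers given above. Old 7 lay among the Young values and the other 3 Old libraries above all others. Its log2 fold change in Old was 0.32 ± 0.09 SE with an edgeR adjusted p of 0.0512, just outside the threshold, and without Old 7 it was 0.41 with an adjusted p of 0.0107. Slc1a2 was called by DESeq2 (adjusted p = 0.0061), by limma voom (0.0428) and by edgeR without TMM factors (0.0253). Slc1a3, the other glutamate transporter, was at 385 to 504 CPM for Young, 524 to 547 for Old and 451 to 519 for Old_CP2, so that all Old values exceeded the rest. DESeq2 called Slc1a3 higher in Old (adjusted p = 0.0345). Glul, glutamine synthetase, was at 813 to 1087, 1015 to 1134 and 972 to 1279 CPM, with wide overlap. DESeq2 called Glul higher in Old_CP2 against Young (adjusted p = 0.0499). Slc6a11, a GABA transporter, overlapped as well, at 304 to 353, 342 to 448 and 311 to 379 CPM.

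Slc7a10 (ENSMUSG00000030495, chr7:35186385-35204898, mm10), a carrier of small neutral amino acids such as serine and glycine, was the 1 member with a negative fold change in Old against Young (-0.15, edgeR adjusted p = 0.162). It was at 57.8, 53.7, 50.5 and 52.4 CPM in Young, 44.5, 45.9, 49.9 and 52.4 in Old, and 44.6, 44.1, 45.1 and 49.1 in Old_CP2. All Old_CP2 values lay below all Young values, while Old 10 reached into the Young range. The log2 fold change in Old_CP2 against Young was -0.23 ± 0.06 SE (edgeR adjusted p = 0.0398). The call was lost without 1 of 3 Young libraries (1, 3 or 5) and without 1 of 3 Old_CP2 libraries (11, 12 or 13). Lrp3 overlaps its span, with a mean count of 188% of that of Slc7a10. The libraries carry no strand information, so that reads of the overlap cannot be assigned.

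Among the 7 genes of water, ion and endfoot membrane proteins, all had a positive fold change in Old against Young and all a negative one in Old_CP2 against Old. The bicarbonate transporter gene Slc4a4 (ENSMUSG00000060961, chr5:88886818-89239653) was the 1 member of this group that rose in Old. It was at 234, 245, 234 and 218 CPM in Young, 293, 257, 262 and 294 in Old, and 234, 257, 240.4 and 264 in Old_CP2. Every Old value exceeded every Young value (log2 fold change 0.25 ± 0.06 SE, adjusted p = 0.0276), while Old_CP2 overlapped both groups. This call was lost without Young 4, Young 5, Old 7 or Old 10, at adjusted p of 0.0546 to 0.064.

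Kcnj10, the inward rectifier through which astrocytes take up potassium, had the most negative fold change of the members in Old_CP2 against Old. It was at 332, 335, 313 and 253 CPM in Young, 338, 344, 309.8 and 383 in Old, and 229.8, 245, 254 and 308 in Old_CP2. The 4 Old_CP2 libraries lay below the 4 Old libraries, with Old_CP2 15 within 2 CPM of the lowest Old library (log2 fold change -0.41 ± 0.10 SE, unadjusted p = 0.00164, edgeR adjusted p = 0.333). Against Young, the fold change of Old_CP2 was -0.25 (95% interval -0.47 to -0.03, adjusted p = 0.17), and the groups overlapped through Young 5.

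Mlc1 and Hepacam encode partner proteins of the junctions between endfeet. Mlc1 was at 151, 190.3, 168 and 161 CPM in Young, 184, 203, 172 and 186 in Old, and 146, 165, 171 and 172 in Old_CP2. Hepacam was at 85.6, 88.9, 80.4 and 80.8 CPM in Young, 86.7, 87.7, 88.9 and 93.1 in Old, and 79.8, 83.6, 83.7 and 85.9 in Old_CP2. In both, Old_CP2 stayed below Old in all libraries by a narrow gap, with fold changes of -0.19 (unadjusted p = 0.0279) and -0.10 (unadjusted p = 0.0456), while Young overlapped both. The other members of this group were the water channel gene Aqp4, the sodium pump subunit gene Atp1b2 and Ttyh1, a membrane protein. Aqp4 was at 153 to 186 CPM for Young, 189.7 to 246 for Old and 164 to 203 for Old_CP2, so that Old did not overlap with Young (log2 fold change 0.27, edgeR adjusted p = 0.0918). DESeq2 called Aqp4 higher in Old (adjusted p = 0.0425). Atp1b2 and Ttyh1 overlapped in all 3 comparisons.

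Both gap junction genes rose in Old. Gja1 (ENSMUSG00000050953, chr10:56377300-56390419) was at 208, 213, 200.4 and 214 CPM in Young, 245, 248, 239 and 242 in Old, and 188, 207, 221 and 222 in Old_CP2. The Old libraries formed a tight group above all others, and the Old_CP2 libraries lay on both sides of the Young ones. The log2 fold change was 0.22 ± 0.05 SE in Old against Young (adjusted p = 0.0257), -0.22 ± 0.05 in Old_CP2 against Old (adjusted p = 0.279) and 0.01 in Old_CP2 against Young (95% interval -0.11 to 0.12). The call in Old was lost without Young 1, Young 4 or Old 8, at adjusted p of 0.0508 to 0.073. Gjb6 (ENSMUSG00000040055, chr14:57123303-57133611) was at 53.3, 51.1, 47.5 and 47.0 CPM in Young, 62.7, 65.3, 62.0 and 58.6 in Old, and 52.1, 56.3, 53.1 and 57.9 in Old_CP2. Old lay above both other groups without overlap (log2 fold change against Young 0.32 ± 0.05 SE, adjusted p = 0.00585). Old_CP2 was between them, with a fold change of -0.18 against Old (unadjusted p = 0.00567) and 0.14 against Young (95% interval 0.02 to 0.26, adjusted p = 0.141).

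Of the 8 metabolic genes, 2 rose in Old and 5 had an unadjusted p under 0.05 in Old_CP2 against Old, all 5 lower and without overlap. Acsbg1 (ENSMUSG00000032281, chr9:54604877-54661870), which activates long-chain fatty acids, had the smallest p of the members in that comparison. It was at 152, 153, 149.9 and 157 CPM in Young, 193, 180.0, 179.8 and 182 in Old, and 142, 148, 143 and 169 in Old_CP2. Old was high in all 4 libraries, and Old_CP2 15 alone of its group lay above the Young range. The log2 fold change was 0.26 ± 0.05 SE in Old against Young (adjusted p = 0.0129), -0.29 ± 0.05 in Old_CP2 against Old (unadjusted p = 0.000119, adjusted p = 0.107) and -0.03 in Old_CP2 against Young (95% interval -0.14 to 0.09). Against Old it ranked 25th by p of all genes tested. It became called there without Old_CP2 15 (adjusted p = 0.00475) and with the midbrain and hindbrain level as a covariate (adjusted p = 0.0332).

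Aldh1l1, a folate enzyme often used to tag astrocytes, was at 56.7, 56.7, 53.4 and 54.9 CPM in Young, 59.1, 66.5, 65.9 and 67.4 in Old, and 46.6, 54.3, 54.0 and 57.8 in Old_CP2. Old exceeded both other groups in every library, narrowly so in Old 7. Its fold change was 0.22 in Old against Young (edgeR adjusted p = 0.0536, DESeq2 adjusted p = 0.0191) and -0.28 in Old_CP2 against Old (edgeR unadjusted p = 0.000623). Prodh, which oxidises proline, was at 27.9, 26.1, 24.5 and 25.1 CPM in Young, 30.5, 29.1, 31.1 and 29.9 in Old, and 21.3, 23.4, 23.8 and 28.0 in Old_CP2. Old was again above both groups, and Old_CP2 15 stood apart from the other 3 libraries of its group just above the highest Young value. Its fold change in Old_CP2 against Old was -0.32 (unadjusted p = 0.00072), and -0.40 without Old_CP2 15 (adjusted p = 0.0234). Dgcr6 overlaps the Prodh span, with a mean count of 154% of that of Prodh, so reads of the overlap may be shared.

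Cbs, the first enzyme of transsulfuration, was at 27.3, 27.8, 25.8 and 27.8 CPM in Young, 28.0, 30.1, 30.2 and 30.2 in Old, and 25.1, 24.4, 25.7 and 26.8 in Old_CP2. Slc39a12, a zinc importer, was at 64.1, 73.1, 71.3 and 73.1 CPM in Young, 87.8, 81.0, 69.3 and 69.8 in Old, and 58.3, 62.3, 63.9 and 66.1 in Old_CP2. For both genes all Old_CP2 values lay below all Old values, with fold changes of -0.22 (unadjusted p = 0.000554) and -0.30 (unadjusted p = 0.00177). In Slc39a12 the 4 Old values formed a high and a low pair. Ppp1r3c (ENSMUSG00000067279, chr19:36731737-36736653), which brings a phosphatase to glycogen, was at 30.4, 36.3, 39.5 and 42.5 CPM in Young, 52.9, 54.2, 53.8 and 44.1 in Old, and 50.4, 53.8, 43.0 and 43.3 in Old_CP2. It rose in Old (log2 fold change 0.46 ± 0.11 SE, adjusted p = 0.0217). Old_CP2 lay above every Young value too, at a fold change of 0.36 (edgeR adjusted p = 0.0573, DESeq2 adjusted p = 0.0162). The call in Old was lost without Young 3, Old 7 or Old 9, at adjusted p of 0.0507 to 0.0543. Dio2, which activates thyroid hormone, and Plcd4 were not called, at 43.8 to 74.1 and 20.5 to 25.6 CPM over all libraries.

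**Figure D3:**
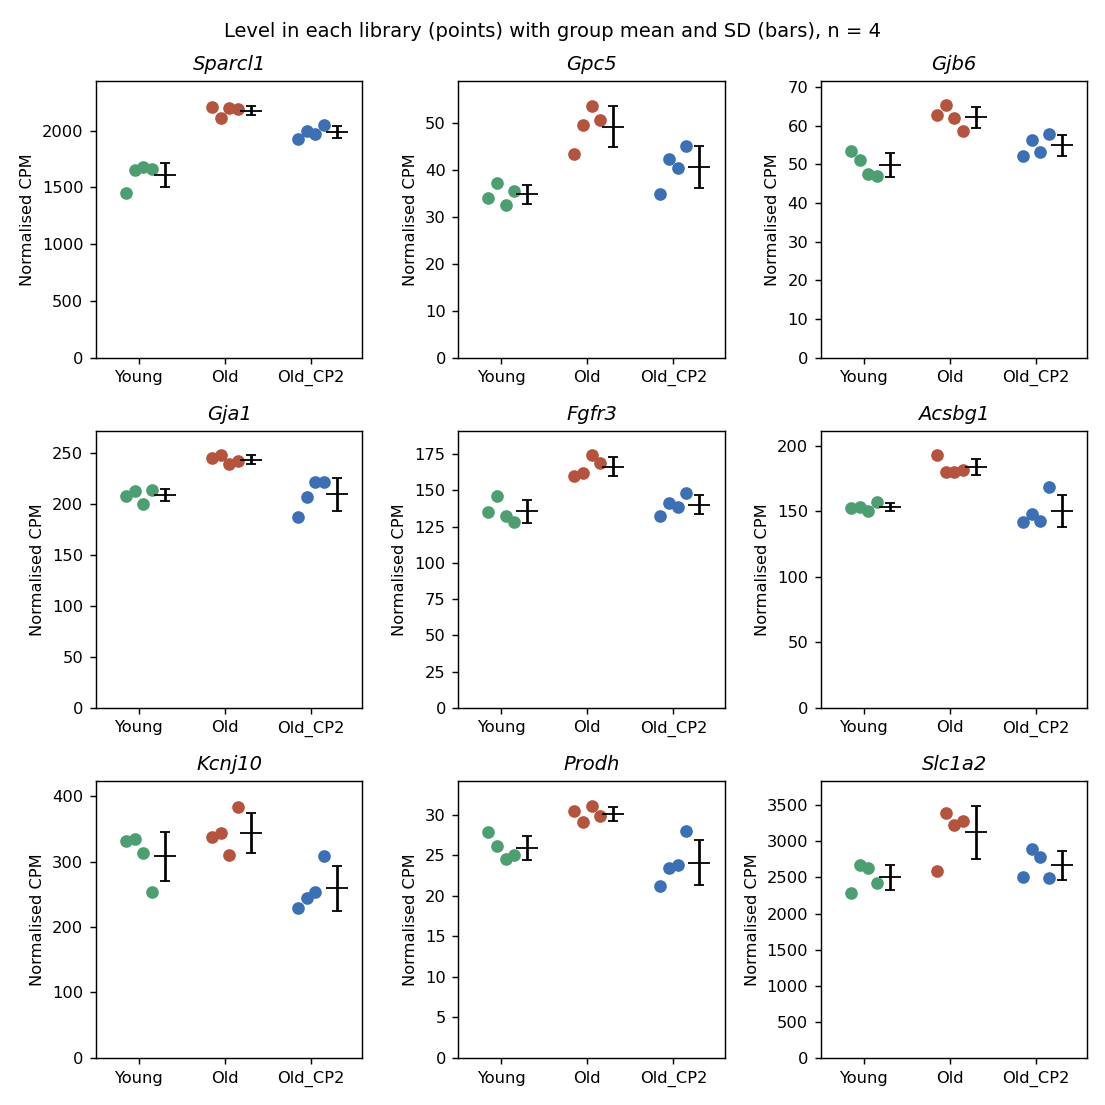
Normalised CPM (y axes, from 0) in each library (points) with the group mean and SD (bars, n = 4) for 9 members. In Gja1, Fgfr3 and Acsbg1 the Old points lie above both other groups, while Old_CP2 lies between Young and Old in Sparcl1.

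Of the 5 receptor, transcription and signalling genes, Fgfr3 rose in Old. Fgfr3 (ENSMUSG00000054252, chr5:33721724-33737068), a fibroblast growth factor receptor, was at 135, 146, 132 and 128 CPM in Young, 160.0, 162, 174 and 169 in Old, and 132, 142, 139 and 148 in Old_CP2. Old lay above both other groups, which overlapped with each other. The log2 fold change was 0.30 ± 0.05 SE in Old against Young (adjusted p = 0.00641), -0.25 ± 0.05 in Old_CP2 against Old (unadjusted p = 0.000327, adjusted p = 0.171) and 0.05 in Old_CP2 against Young (95% interval -0.06 to 0.16). Ndrg2, a signalling protein that is abundant in astrocytes, was at 670.3, 651, 599 and 666 CPM in Young, 742, 747, 723 and 801 in Old, and 621, 617, 609.8 and 728 in Old_CP2. Old_CP2 15 lay within the Old range and the other 3 Old_CP2 libraries within the Young range. Its fold change was 0.22 in Old (edgeR adjusted p = 0.061, DESeq2 adjusted p = 0.0133) and -0.23 in Old_CP2 against Old (edgeR unadjusted p = 0.00393).

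S100b, a calcium-binding protein, had the largest fold change of the members in Old against Young without being called (0.58, adjusted p = 0.0685). It was at 105, 100.4, 106 and 117 CPM in Young, 242, 137, 133 and 129.7 in Old, and 121, 128, 121 and 166 in Old_CP2. Old 7 stood far above the other libraries, and all Old and all Old_CP2 values exceeded all Young values. Old 7 also had the highest summed level of 12 oligodendrocyte genes, at 7777 CPM against 5415 to 5848 in the other 3 Old libraries. Old_CP2 15 had the highest of its group, at 6738 CPM. The Young libraries, lowest in S100b, were at 5970 to 7224 CPM of these oligodendrocyte genes. In midbrain and hindbrain genes, too, Old 7 and Old_CP2 15 were the highest of their groups, at 102 and 112 summed CPM. Without Old 7 the S100b fold change was 0.32 (adjusted p = 0.0929). It was 0.32 and called without the 4 libraries lowest in choroid plexus genes (adjusted p = 0.0362). Of the Old group that fit held Old 8 and Old 10 alone. With the midbrain and hindbrain level as a covariate the S100b fold change was -0.55 (adjusted p = 0.759). Young and old libraries did not overlap in that level, so it cannot be told apart from age. The part of oligodendrocytes in the S100b values was not tested. Dip2a overlaps the S100b span, with a mean count of 95.6% of that of S100b, and the number of reads in the overlap is not known. Ntsr2, a neurotensin receptor, and Sox9, a transcription factor of glia, were not called and overlapped in all 3 comparisons, Sox9 excepted between Old_CP2 and Old, where all Old_CP2 values were lower.

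Secreted and cell surface proteins formed the group with the most calls, with 3 of 7 higher in Old. Sparcl1 (ENSMUSG00000029309, chr5:104079111-104114088), a secreted matrix protein that promotes synapse formation, had the smallest p of all members. It was at 1453, 1656, 1676 and 1659 CPM in Young, 2208, 2115, 2195 and 2188 in Old, and 1925, 1996, 1968 and 2050.2 in Old_CP2. The 3 groups did not overlap, with Old highest and Old_CP2 between. The log2 fold change was 0.43 ± 0.06 SE in Old against Young (adjusted p = 0.00148), -0.13 ± 0.06 in Old_CP2 against Old (unadjusted p = 0.0357) and 0.30 ± 0.06 in Old_CP2 against Young (adjusted p = 0.00782). Gpc5 (ENSMUSG00000022112, chr14:115092215-116525179), a heparan sulfate proteoglycan of the cell surface, was at 34.1, 37.2, 32.6 and 35.6 CPM in Young, 43.4, 49.6, 53.6 and 50.7 in Old, and 34.8, 42.3, 40.4 and 45.2 in Old_CP2. Old was above Young throughout (0.50 ± 0.08 SE, adjusted p = 0.00471), and Old_CP2 overlapped both.

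Mfge8 (ENSMUSG00000030605, chr7:79133769-79149060), which links dying cells to phagocytes, was at 107, 122, 123 and 133 CPM in Young, 131, 164, 156 and 156 in Old, and 151, 145, 152 and 140.5 in Old_CP2. It rose in Old (0.33 ± 0.07 SE, adjusted p = 0.0203) and in Old_CP2 (0.28 ± 0.07 SE against Young, adjusted p = 0.0354), although Old 7 lay below Young 5. The call in Old_CP2 was lost without any 1 of Young 1, 3 and 4 or Old_CP2 11, 12 and 13, at adjusted p of 0.0619 to 0.0957. Cst3, a cysteine protease inhibitor, was at 869, 879.9, 922 and 1040.2 CPM in Young, 1072, 1193, 1062 and 1070.4 in Old, and 803, 778, 959.7 and 1120.2 in Old_CP2. The Old_CP2 values spread from below the Young range into the Old range (fold change against Old -0.26, unadjusted p = 0.0242). The chaperone gene Clu, the hyaluronan-binding Itih3 and Chrdl1 were not called by edgeR in any comparison, while DESeq2 called Itih3 higher in Old_CP2 against Young (log2 fold change 0.34, adjusted p = 0.0493). Itih3 was at 46.7 to 64.0 CPM for Young, 50.1 to 77.1 for Old and 63.9 to 74.5 for Old_CP2, and was the other member besides Glul with a positive fold change in Old_CP2 against Old (0.08).

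**Figure D4:**
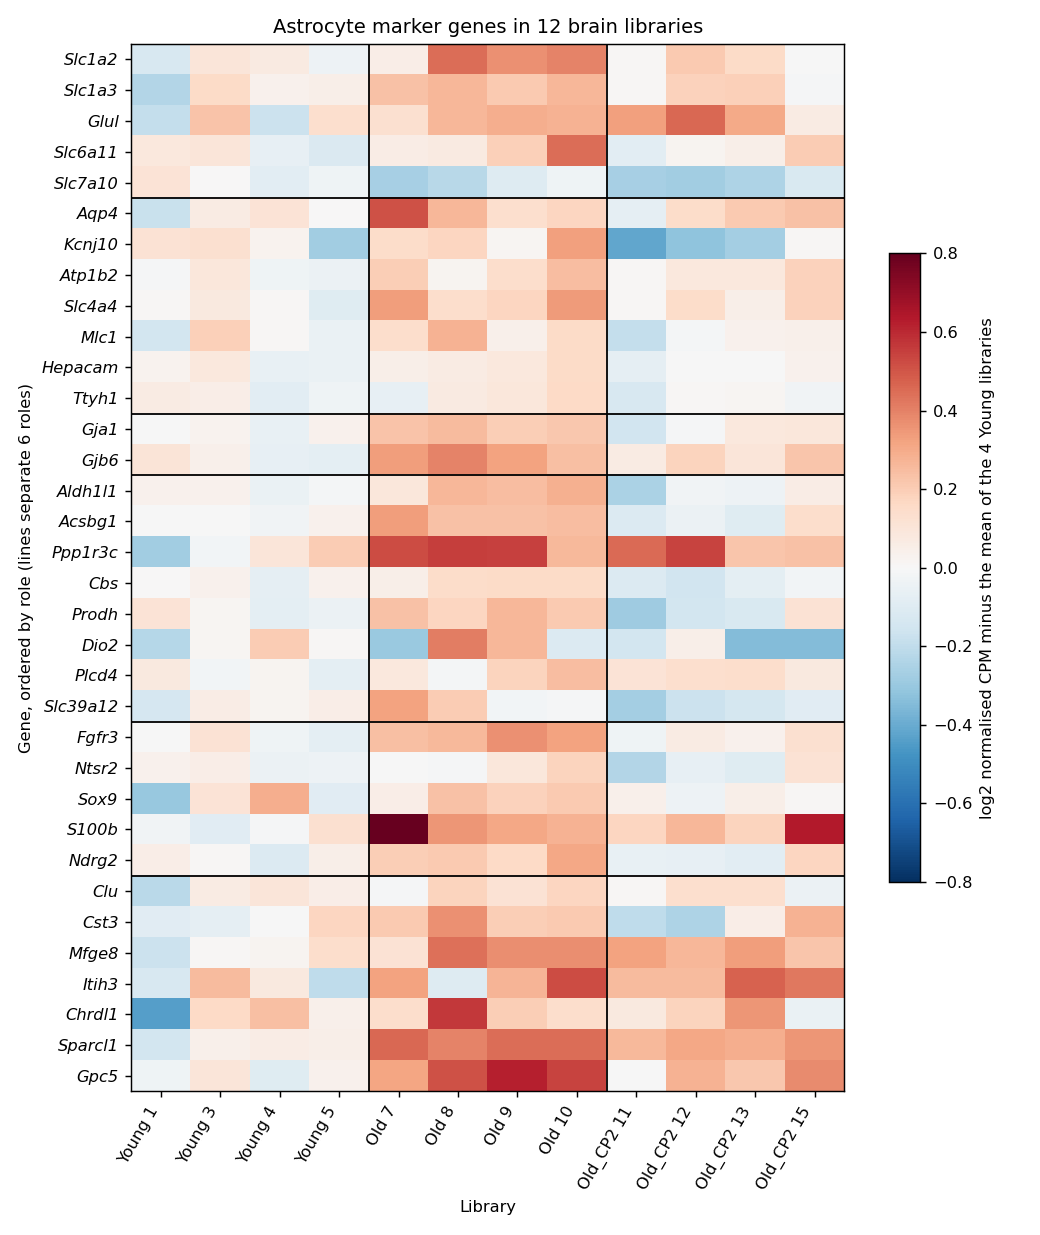
Log2 normalised CPM of each member (rows, grouped by role) in each library (columns), minus the mean of the 4 Young libraries; the colour scale ends at -0.8 and 0.8, which S100b in Old 7 exceeds. The 4 Old columns are red for most members, and Old_CP2 11 is the bluest of the Old_CP2 columns.

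Promoter sequence was read for all members with an entry, called or not, and is printed for some of those called higher in Old. Entries of 300 bases, 250 before the start site and 50 from it on, were taken from RefSeq on GRCm38.p6 and matched 28 of 34 members by symbol. Aqp4, Atp1b2, Sox9, Clu, Chrdl1 and Sparcl1 had none. The 4 called members with the smallest p and an entry are printed 5′ to 3′ on the strand of the gene. Capitals mark TTGGC on either strand, part of the binding motif of nuclear factor I, a family of transcription factors active in astrocytes.
Gpc5 (chr14:115091965-115092264, plus strand): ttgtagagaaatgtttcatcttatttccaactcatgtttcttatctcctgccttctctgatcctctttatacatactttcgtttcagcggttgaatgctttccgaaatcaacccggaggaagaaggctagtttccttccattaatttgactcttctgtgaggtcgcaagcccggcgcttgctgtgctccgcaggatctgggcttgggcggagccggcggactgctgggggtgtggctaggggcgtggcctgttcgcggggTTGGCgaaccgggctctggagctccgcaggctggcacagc
Gjb6 (chr14:57133562-57133861, minus strand): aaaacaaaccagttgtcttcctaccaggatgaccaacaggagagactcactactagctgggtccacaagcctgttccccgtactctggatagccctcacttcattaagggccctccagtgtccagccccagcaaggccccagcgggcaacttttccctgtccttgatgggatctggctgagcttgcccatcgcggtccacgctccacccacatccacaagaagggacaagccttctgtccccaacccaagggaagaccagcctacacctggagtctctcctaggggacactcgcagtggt
Fgfr3 (chr5:33721474-33721773, plus strand): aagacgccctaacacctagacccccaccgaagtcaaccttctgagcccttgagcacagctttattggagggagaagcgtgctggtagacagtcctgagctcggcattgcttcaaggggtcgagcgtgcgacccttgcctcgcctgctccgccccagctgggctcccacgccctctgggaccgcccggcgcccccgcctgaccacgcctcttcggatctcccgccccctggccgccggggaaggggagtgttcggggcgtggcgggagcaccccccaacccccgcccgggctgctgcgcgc
Acsbg1 (chr9:54661836-54662135, minus strand): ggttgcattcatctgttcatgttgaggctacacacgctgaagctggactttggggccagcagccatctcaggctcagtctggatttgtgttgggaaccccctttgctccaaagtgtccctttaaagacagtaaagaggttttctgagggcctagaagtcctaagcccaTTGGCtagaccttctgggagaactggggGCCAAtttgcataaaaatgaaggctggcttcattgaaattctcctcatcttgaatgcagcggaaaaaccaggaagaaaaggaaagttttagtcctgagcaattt

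Acsbg1 held 2 matches, 82 and 54 bases before the start site, Gpc5 held 1, and Gjb6 and Fgfr3 held 0. A match was found in 46.7% of all 32851 promoters and in 14 of 28 members. ACAAT, the core of the motif of SOX factors such as Sox9, searched on both strands, was in 31.0% of all promoters and in 4 of 28 members (14.3%). Median GC content was 58.7% in the members and 52.7% in all promoters. A match describes letters in this window and not a bound site.

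Other astrocyte genes were set beside the members from a further list of 40, all of them tested. In Old against Young, 9 rose and 0 fell, with a median of 0.14 on the log2 scale. Etnppl, an enzyme that breaks down phosphoethanolamine, had 34.2 ± 6.04 CPM in Old and 17.7 ± 1.51 in Young (n = 4 a group, fold change 0.95 on the log2 scale, edgeR adjusted p = 0.00653). The glycolytic enzyme gene Aldoc rose from 710.0 ± 37.9 to 901 ± 65.4 CPM (0.34, adjusted p = 0.00783), and F3, tissue factor, from 32.4 ± 1.34 to 42.4 ± 2.36 CPM (0.39, adjusted p = 0.00266). Between Old_CP2 and Old, edgeR called 0 of these 40, and 16 were lower and 0 higher at an unadjusted p under 0.05, with 36 negative fold changes and a median of -0.14. Nwd1 had the smallest p there, at 84.8 ± 3.22 CPM in Old_CP2 and 100.1 ± 3.79 in Old (unadjusted p = 0.0011, adjusted p = 0.278). Against Young, 2 of the 40 rose and 2 fell in Old_CP2, with a median of 0.02.

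Reactive astrocyte genes were set beside the members as well. Of 30 such genes, 7 rose and 0 fell in Old against Young, and 14 rose and 0 fell in Old_CP2 against Young. Gfap was at 183 to 241 CPM for Young, 325 to 494 for Old and 353 to 423 for Old_CP2, so that both old groups exceeded Young. Its log2 fold change was 0.81 in both comparisons with Young (adjusted p = 0.00491 and 0.00361) and 0.01 in Old_CP2 against Old (adjusted p = 0.996). Between Old_CP2 and Old the 30 genes had a positive fold change in 25 cases and a median of 0.11, with 0 called and 4 higher at an unadjusted p under 0.05. The difference between the member list and the reactive list was not tested.

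Genes of other cells also differed in level between the groups. Between Old_CP2 and Old, the summed level of 8 pericyte genes was 169 to 242 against 132 to 159 CPM, that of 7 erythrocyte genes 415 to 627 against 249 to 317 CPM and that of 12 neuron genes 8682 to 9174 against 7878 to 8672 CPM, each without overlap between the groups. As a mean of log2 levels, where each gene weighs the same, the pericyte list (3.21 to 3.61 in Old, from 3.60 in Old_CP2) and the neuron list (9.00 to 9.12 and 9.11 to 9.16) did overlap, and the erythrocyte list did not (3.20 to 4.09 and 4.62 to 5.38). Of these lists edgeR called 2 of 7 erythrocyte genes higher, 0 of 8 pericyte genes and 0 of 12 neuron genes, with 5 pericyte genes and 1 neuron gene higher at an unadjusted p under 0.05. No pericyte or neuron gene of the lists was at 0 in any library, and of the erythrocyte genes Slc4a1 was at 0 in at least 1. Oligodendrocyte genes had a median fold change of -0.10 there, with 4840.5 to 6738 summed CPM in Old_CP2 and 5415 to 7777 in Old. In Old against Young, 9 of 12 midbrain and hindbrain genes, 3 of 12 hippocampal and cortical genes and 2 of 12 microglial genes rose. In the same comparison 7 of 9 striatal, 5 of 8 thalamic, 4 of 8 hypothalamic and 3 of 8 ependymal genes fell, as did 3 of 12 neuron, 2 of 12 oligodendrocyte, 2 of 7 oligodendrocyte precursor and 1 of 8 pericyte genes. Of 7 erythrocyte genes 1 rose and 1 fell, and of 12 choroid plexus genes 0 were called, with 12 fold changes negative. The part of these cells and regions in the members' values was not tested beyond the fits described next.

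A further 3 fits made use of the regional content of the libraries. With the choroid plexus level of each library as a covariate, 4 members were called higher in Old, Sparcl1, Gpc5, Gjb6 and Fgfr3, and the member median was 0.25. Over all genes, 333 were called in Old against Young in this fit and 1511 in the main fit. Young and old libraries did not overlap in this level, so it cannot be told apart from age there. Without the 4 libraries lowest in choroid plexus genes (Old 7, Old 9, Old_CP2 11 and Old_CP2 15) the member median was 0.24, and 514 genes were called in all. Without these 4 libraries Gjb6 (adjusted p = 0.0508), Slc4a4 (0.104) and Ppp1r3c (0.166) lost their call, and Slc1a2 (0.0179), Aldh1l1 (0.026) and S100b (0.0362) were called. Old 8 and Old 10 were then the only Old libraries. Their choroid plexus genes, at 1007 and 831 summed CPM, were still below the Young range of 1269 to 2039. Their midbrain and hindbrain genes, at 49.6 and 48.9 summed CPM, were still above the Young range of 13.1 to 20.4. With the midbrain and hindbrain level as a covariate the median was 0.18, but edgeR called 0 of all 22553 genes and 2 members had an unadjusted p under 0.05. Young and old libraries did not overlap in this level either, so it cannot be told apart from age in Old against Young. In that fit 25 members had a positive and 9 a negative fold change, in place of 33 and 1. The 8 that changed sign were S100b, Acsbg1, Prodh, Slc39a12, Ntsr2, Ndrg2, Atp1b2 and Cst3, and Acsbg1, called without the covariate, was at -0.09. In Old_CP2 against Old the member median was -0.15 with either covariate and -0.17 without the 4 libraries, and 16, 16 and 12 members were lower at an unadjusted p under 0.05.

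**Figure D5:**
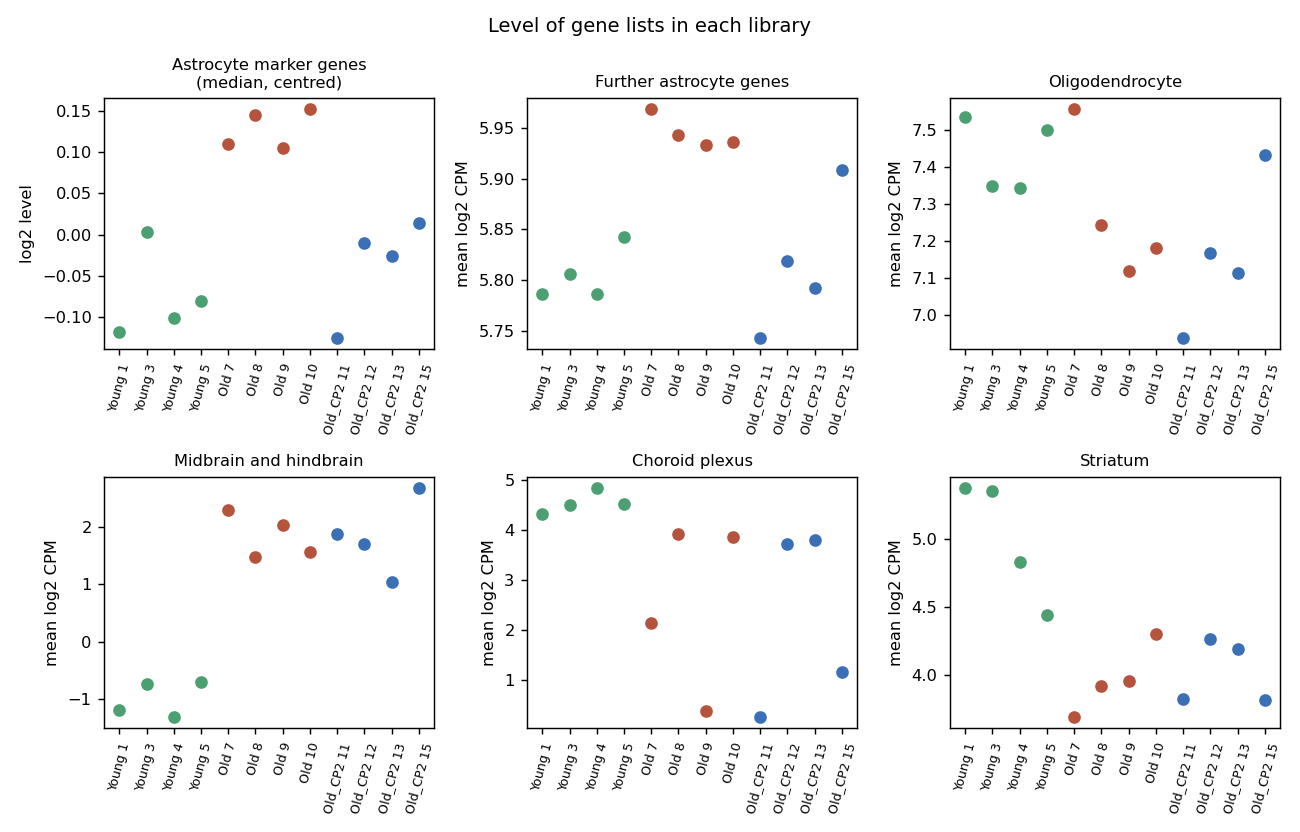
Level of 6 gene lists in each library: for the 34 members the median of centred log2 levels, for the other lists the mean log2 CPM (y axes, each with its own range), with the 12 libraries on the x axis. The member level is highest in the 4 Old libraries, the midbrain and hindbrain level is below 0 in the 4 Young libraries and above 1 in the other 8, and the choroid plexus level is lowest in Old 9 and Old_CP2 11.

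The coefficient of variation of a member over the 4 libraries of a group ranged from 1.67% (Gja1 in Old) to 34.1% (S100b in Old). Old_CP2 11 was the lowest of its group for 20 of 34 members and the highest for 0, and Old_CP2 15 was the highest for 22. Young 1 was the lowest of its group for 14 members, among them Slc1a2, Slc1a3, Ppp1r3c and Sparcl1. Of all 12 libraries, Old 10 was highest for 13 members and Old 8 for 10, while Young 1 and Old_CP2 11 were each lowest for 10. Across the 561 pairs of members, the correlation of deviations from the group means had a median of 0.20 over 12 libraries. Of these pairs 64.3% were above 0. All members were read in the same libraries, which differed in depth and tissue content, and the part of this in the correlations was not tested.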

How the data were processed

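Raw gene counts in 12 libraries were used as deposited by the authors, 1 column per library. The file also holds RPKM values made by the authors, per the file headers, which were not used. It also holds a deposited gene length, taken as bases, which was used to give CPM per kb. Per the submitters' processing notes, reads were processed with bcl2fastq, TopHat and featureCounts of Subread on mm10; their versions, and the annotation release, are not given in the sources used. The library kit keeps no strand information, and 9 of 34 members share their span with a gene that has over 5% of their count. Counts were fitted in edgeR 4.0.16 (R 4.3.3) with filterByExpr, TMM factors and a quasi-likelihood model of the group over all 12 libraries. Each comparison was a two-sided F test with Benjamini-Hochberg adjustment over 22553 genes, called at an adjusted p under 0.05. Log2 fold changes use a prior count of 0.125, and group values are mean ± SD. Alternatives were DESeq2 1.42.0, limma 3.58.1 (voom), other scalings and filters, leaving out libraries, and regional covariates. Members, lists and the naming rule were chosen with earlier results of these data known: values in every library are given for members called in any comparison or at an unadjusted p under 0.05 in Old_CP2 against Old, plus S100b, added after its values were seen, and from other lists up to 4 genes per comparison by smallest p, with Gfap, Ttr and Pax7. Promoters are from RefSeq, GRCm38.p6, the assembly of mm10. No protein sequence was used here.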

Additional observations from a re-analysis of the deposited data

Results flagged for a closer look

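In 10 of 102 combinations of member and group, 1 library lay far from the other 3, so that its gap to the nearest value was too large a share of the group's range by Dixon's 95% criterion. Chance gives about 1 in 20. In Old 7, Glul was low at 1015 CPM (nearest 1117), Cbs low at 28.0 CPM (nearest 30.1), Acsbg1 high at 193 CPM (nearest 182) and S100b high at 242 CPM (nearest 137). In Old 8, Cst3 was high at 1193 CPM (nearest 1072) and Chrdl1 high at 13.8 CPM (nearest 10.7). Ppp1r3c was low in Old 10, at 44.1 CPM (nearest 52.9), and Ndrg2 was high in Old_CP2 15, at 728 CPM (nearest 621). In Young 1, Clu was low at 525 CPM (nearest 633) and Sparcl1 low at 1453 CPM (nearest 1656).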

How the results depend on the processing

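In Old against Young, 9 members were called higher, where 1511 of all genes were called in either direction. DESeq2 gave 14 (2453 of all genes), the choroid plexus covariate 4 (333 of all genes) and the midbrain and hindbrain covariate 0 (0 of all genes). Leaving out 1 library gave 7 to 9 members and 855 to 1258 of all genes. The member median stayed between 0.18 and 0.25 over all alternatives, but with the midbrain and hindbrain covariate 8 members changed sign, among them S100b (-0.55) and the called member Acsbg1 (-0.0879). In Old_CP2 against Old, 0 members were called lower, where 10 of all genes were called in either direction. DESeq2 gave 7 (109 of all genes) and the midbrain and hindbrain covariate 1, Acsbg1 (9 of all genes). Leaving out 1 library gave 0 to 2 members and 6 to 38 of all genes. Members lower at an unadjusted p under 0.05 numbered 11 to 19 on leaving out 1 library, against 17, and the median stayed between -0.19 and -0.13. In Old_CP2 against Young, 2 were called higher, where 1707 of all genes were called in either direction. DESeq2 gave 5 (2606 of all genes), the choroid plexus covariate 0 (335) and the midbrain and hindbrain covariate 0 (0). Removal of the 4 libraries low in choroid plexus gave 1 (709). Leaving out 1 library gave 1 to 4 members and 827 to 1590 of all genes. The 1 member called lower there, Slc7a10, was called in 0 cases without TMM factors, without the count filter, with each covariate and without the 4 libraries, and in 0 to 1 on leaving out 1 library. That comparison's median of 0.05 reversed to -0.0257 with the midbrain and hindbrain covariate and was 0.008 to 0.083 on leaving out 1 library. The cause of these shifts was not tested. Young and old libraries overlapped in neither regional covariate, so in comparisons with Young these levels cannot be told apart from age. No paired analysis was possible because the groups share no replicate numbers in the labels. The lowest count of a member in any library was 529.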
